A study of Mus musculus with 23 samples.

Results

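Interferon-stimulated genes are genes that cells switch on when an interferon binds its receptor. A list of 41 such genes was read by symbol from a gene count table of mouse skin and skin wounds, and all 41 were among the 56379 genes of the table and among the 23083 genes with enough counts to be tested. The mice were HTNF ki/ki Lepr db/db, 8 to 12 weeks old. They lack a working leptin receptor, which makes them obese and diabetic, and the HTNF ki/ki allele is by its name a knock-in of human TNF. Each mouse had 4 full-thickness wounds of 6 mm on the back, and the samples are 8 mm punches over them. One arm received PBS (here called control) and the other adalimumab, a therapeutic antibody against human TNF, injected under the skin at 20 mg per kg. Tissue came from unwounded skin on day 0 and from wounds on days 3, 7 and 10, which gives 8 groups of 3 libraries, except adalimumab day 10 with 2. The labels place the first injection on day 0, and do not say whether day 0 skin was taken before or after it.

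Type I interferons (alpha and beta) act through the Ifnar1 and Ifnar2 receptor chains and a complex that includes Stat2 and Irf9. That complex binds the interferon-stimulated response element (ISRE) in the promoters of antiviral genes such as Isg15 and the Ifit, Oas and Mx families. Interferon gamma, made mainly by T and NK cells, acts through Ifngr1 and Ifngr2 and on gamma-activated sites (GAS), and it is known for raising Gbp and immunity-related GTPases, antigen presentation genes and the chemokine Cxcl9. The division is not strict, since many genes answer to both interferons. Here the type I list held 12 genes (Isg15, Ifit1, Ifit2, Ifit3, Ifit3b, Oas1a, Oas2, Oas3, Oasl1, Oasl2, Mx1 and Mx2), the gamma-type list held 6 (Gbp2, Gbp3, Gbp5, Irgm1, Igtp and Cxcl9), and 23 members were in neither.

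The 2 classes of element can be read in the promoters, which are shown because the lists are named for the interferon that works through them. Promoter windows of 300 bases (250 before to 50 after the annotated start, RefSeq, build GRCm38.p6) were found for 30 of the 41 members. The letters GAAANNGAAA, on either strand, were taken as an ISRE-like match and TTCNNNGAA as a GAS-like match. In the stretches below, written 5′ to 3′ on the strand of the gene, capitals mark these matches, and overlapping matches run together.
Isg15 (chr4:156200863-156200908, minus strand): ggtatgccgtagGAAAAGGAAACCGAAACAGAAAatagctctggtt
Ifit1 (chr19:34640773-34640825, plus strand): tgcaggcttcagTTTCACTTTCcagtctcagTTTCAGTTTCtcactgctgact
Ifit3 (chr19:34583361-34583428, plus strand): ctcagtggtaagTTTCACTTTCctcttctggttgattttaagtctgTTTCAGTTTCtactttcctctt
Ifit3b (chr19:34607757-34607824, plus strand): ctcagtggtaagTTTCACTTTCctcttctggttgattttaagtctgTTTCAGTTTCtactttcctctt
Rsad2 (chr12:26456551-26456584, minus strand): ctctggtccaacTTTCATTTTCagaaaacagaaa
Gbp2 (chr3:142620592-142620625, plus strand): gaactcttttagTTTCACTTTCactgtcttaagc
Irgm1 (chr11:48871423-48871462, minus strand): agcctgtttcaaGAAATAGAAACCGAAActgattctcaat
Igtp (chr11:58199499-58199543, plus strand): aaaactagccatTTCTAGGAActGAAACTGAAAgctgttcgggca
Irf1 (chr11:53769912-53769944, plus strand): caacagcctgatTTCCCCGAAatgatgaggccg
Isg15 holds 3 overlapping ISRE-like matches, the gamma-type gene Irgm1 holds 2 overlapping ones, and Ifit1, Ifit3 and Ifit3b hold 2 each. Ifit3 and Ifit3b share their stretch letter for letter, and their windows were 75% identical over 268 bases. Their transcripts were not compared, so how reliably reads are split between these genes was not tested. In Igtp a GAS-like match precedes an ISRE-like one, and Irf1 holds a GAS-like match without an ISRE-like one.

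An ISRE-like match stood in 18 of the 30 members with a window (60%), against 3.99% of the 27025 genes with a window. The type I list had it in 6 of 9 genes and the gamma-type list in 5 of 6, so the presence of these letters did not separate the lists. A GAS-like match stood in 8 of 30 members (26.7%), against 9.55% of all genes, with 2 of 9 in the type I list and 2 of 6 in the gamma-type list. A match is a description of the letters and shows no binding.

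Depth was even, from 33080930 to 37494760 counts per library. All 12 libraries of days 0 and 3 carried Xist (20168 to 50247 counts), a marker of females. Those of days 7 and 10 carried the Y-linked Ddx3y (2988 to 4913 counts), except adalimumab day 7 replicate 3. A change from day 0 or day 3 to day 7 or 10 therefore cannot be told apart from a difference of sex. The names of the count columns split in the same way, with a prefix on days 0 and 3 that days 7 and 10 lack. On day 7 the arms also differed in sex, by adalimumab replicate 3. Some libraries stood apart. Adalimumab day 3 replicate 2 had 1276 CPM (counts scaled to library size) of the neutrophil chemokine Cxcl2 against 24.4 and 51.9 in the others of its group. Control day 0 replicate 2 had 14.3 CPM of Cxcl2 against 0.386 and 0.517, and adalimumab day 0 replicates 2 and 3 had hair follicle markers summing to 2518 and 16870 CPM against 20.1 in replicate 1. Keratinocyte markers, which define skin, were nearly absent in adalimumab day 3 replicate 1 (8 markers summing to 10.9 CPM, against 585 to 7021 in the other day 3 libraries).

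In both arms the members were higher in day 3 wounds than in day 0 skin, and the antiviral type I genes rose most. Among control wounds 32 of 41 members rose and 1 fell (adjusted p below 0.05 by the quasi-likelihood test of edgeR, Benjamini-Hochberg over all genes tested), where 17.5% of all genes tested rose and 17.1% fell. In adalimumab wounds 37 of 41 rose and 0 fell, where 11.9% of all genes rose and 9.54% fell. This fit took all libraries as independent, though day 0 and day 3 labels share mouse numbers. The counts with the animal as a block, lower in both arms, are given at the end. The median log2 difference over the members was 2.45 in control and 2.80 in adalimumab, against -0.02 and -0.06 over all genes tested. The adalimumab count was 24 when only its day 0 and day 3 libraries were fitted, and 15 with day 0 replicate 1 as the only baseline, the lone library being assumed to vary like the other groups. In these bulk samples, more cells of a type and more RNA per cell cannot be told apart.

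**Figure D1:**
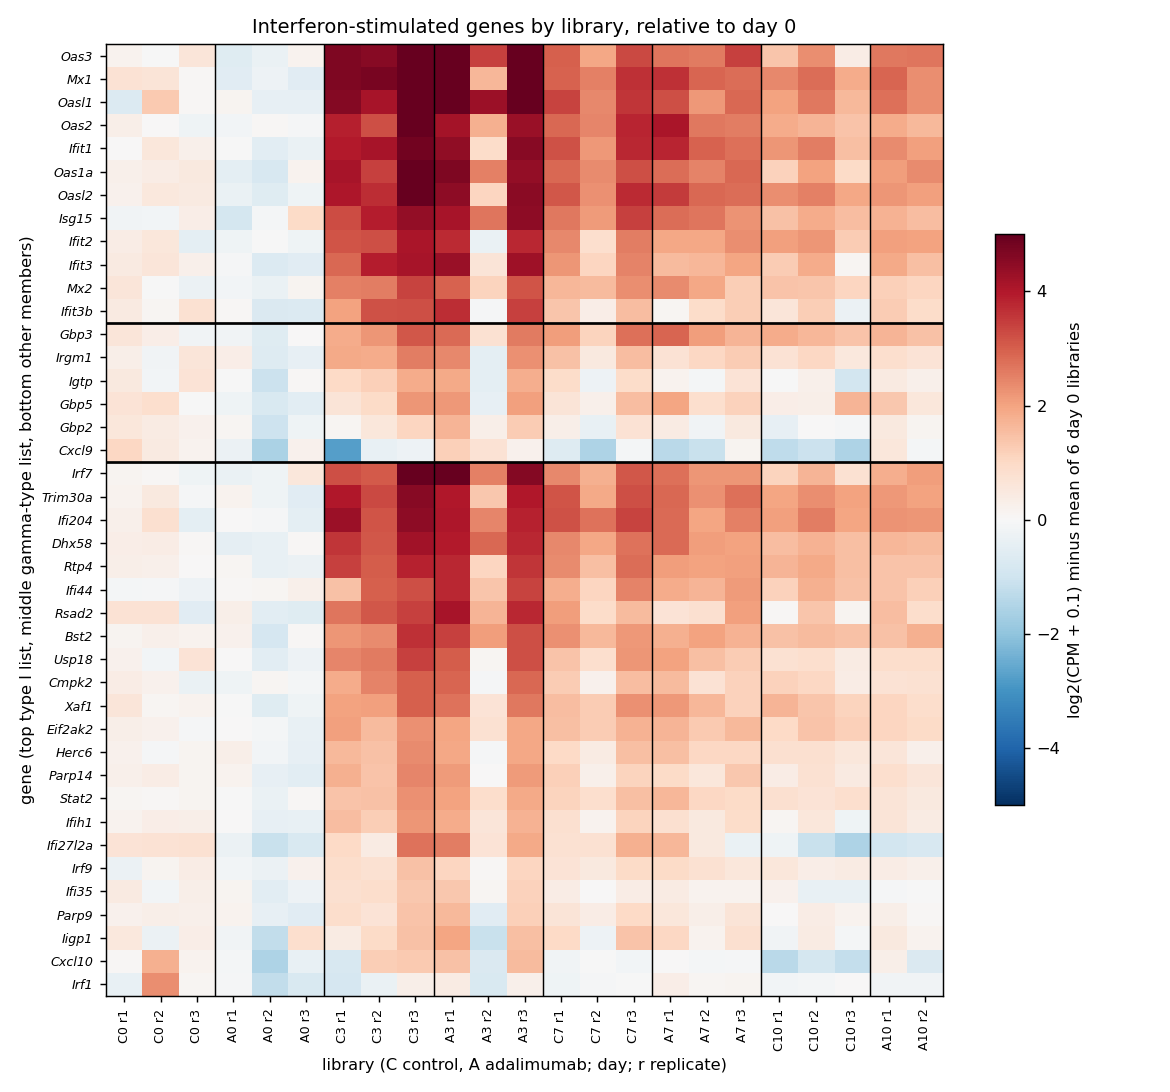
Each row is a member and each column a library. Colour gives log2(CPM + 0.1) minus the mean of the 6 day 0 libraries, with values beyond the scale drawn in its end colours. The 12 type I genes at the top are darkest on day 3 and paler on days 7 and 10, while Cxcl9, Cxcl10 and Irf1 stay pale or blue in most libraries, and adalimumab day 3 replicate 2 is paler than its neighbours.

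All 12 type I genes rose by day 3 in each arm. Isg15, a ubiquitin-like protein that is joined to other proteins, stood at 2.07, 2.15 and 3.01 CPM in control skin on day 0 and at 23.7, 37.4 and 51.7 CPM in control day 3 wounds. Its adalimumab levels were 1.26, 2.20 and 4.70 CPM on day 0 and 42.9, 15.5 and 54.6 CPM on day 3. Every day 3 library was above every day 0 library, and the log2 difference was 3.96 ± 0.51 (SE, adjusted p = 3.7e-05) in control and 3.79 ± 0.51 (7.5e-05) in adalimumab, or 15.6-fold and 13.8-fold.

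The Ifit proteins bind foreign RNA and block its translation. Ifit1 rose from 3.25, 4.76 and 3.81 CPM on day 0 to 51.5, 56.7 and 92.6 CPM on day 3 in control. In adalimumab it went from 3.12, 2.15 and 2.52 CPM to 71.4, 6.00 and 77.2 CPM. The day 3 values lay above the day 0 values in both arms, with replicate 2 of the adalimumab group closest to them. The log2 difference was 4.09 ± 0.67 (adjusted p = 0.000256) in control and 4.31 ± 0.68 (0.000281) in adalimumab. For Ifit3 it was 3.31 ± 0.66 (0.00122) and 4.17 ± 0.69 (0.000423).

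The Oas enzymes make the short RNA messenger that activates the nuclease RNase L, and Mx proteins are GTPases that trap viral particles. Oas3 had the largest rise of the members in both arms, at 5.08 ± 0.68 (adjusted p = 4.6e-05) in control and 5.76 ± 0.70 (3.6e-05) in adalimumab, or 33.8-fold and 54-fold. Its control levels were 0.689, 0.578 and 0.944 CPM on day 0 and 17.3, 16.1 and 41.5 CPM on day 3. Its adalimumab levels were 0.356, 0.449 and 0.693 CPM, then 40.6, 7.28 and 33.7 CPM. Mx1 rose by 4.76 ± 0.70 (0.00011) and 5.49 ± 0.73 (7.1e-05), from 2.78, 2.59 and 1.71 CPM to 44.5, 47.1 and 101 CPM in control. In adalimumab its levels were 1.07, 1.35 and 1.06 CPM on day 0 and 69.4, 5.42 and 82.5 CPM on day 3. No day 3 library of these genes reached down to a day 0 level. Oasl1, whose protein lacks the enzyme activity of its relatives, rose by 4.48 ± 0.57 (3.4e-05) and 5.51 ± 0.60 (1.4e-05). Oas1a rose by 4.03 ± 0.52 (3.5e-05) and 4.47 ± 0.53 (2.8e-05). Oas2 rose by 4.31 ± 0.64 (0.00011) and 3.84 ± 0.62 (0.000361).

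**Figure D2:**
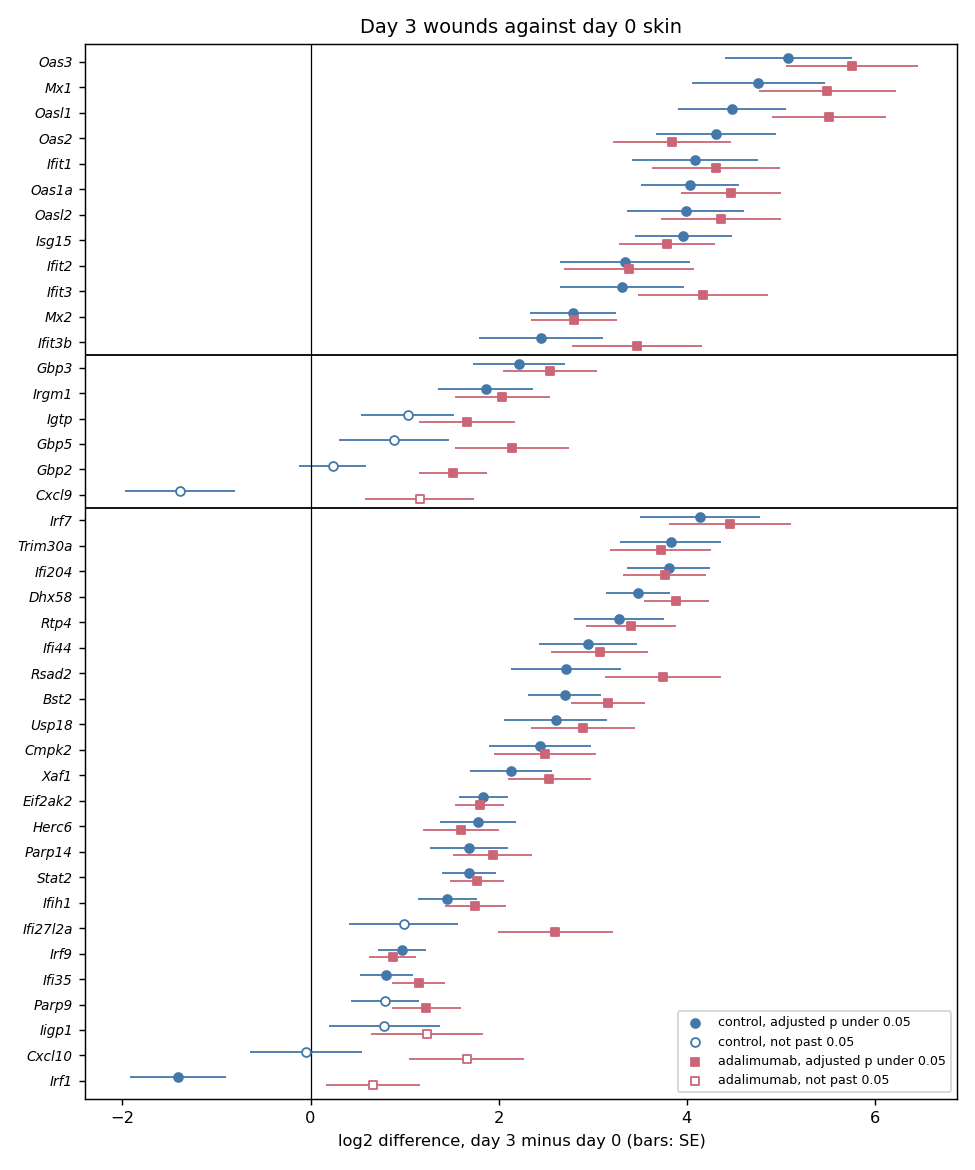
Log2 difference of day 3 from day 0 for each member, with SE, for control (circles) and adalimumab (squares), filled where the adjusted p was under 0.05. Type I genes are at the top, gamma-type genes between the lines and other members below. The 12 type I genes run from 2.45 to 5.08 in control, and Cxcl9 and Irf1 are to the left of 0 in control and to the right in adalimumab.

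The 4 cytoplasmic sensors on the list rose in both arms. Dhx58 (LGP2), which works with the sensors of viral RNA, had the smallest p of any member, with 3.48 ± 0.34 (adjusted p = 5e-06) in control and 3.89 ± 0.35 (3e-06) in adalimumab. Control levels of Dhx58 were 3.97, 4.07 and 3.29 CPM on day 0 and 38.5, 28.0 and 60.3 CPM on day 3. In adalimumab they were 2.30, 2.44 and 3.27 CPM and then 50.8, 23.5 and 44.2 CPM. Replicate 2 of the adalimumab group was again the lowest, but well clear of day 0. Ifi204, a DNA-binding protein of the mouse Ifi200 family, rose by 3.81 ± 0.45 (1.8e-05) and 3.76 ± 0.44 (2.7e-05). Eif2ak2 (PKR), the kinase that stops translation on viral RNA, rose by 1.84 ± 0.26 (7.7e-05) and 1.80 ± 0.26 (0.00014). Ifih1 (MDA5), a sensor of long viral RNA, rose by 1.46 ± 0.32 and 1.75 ± 0.32.

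Among the 4 transcription regulators, Irf7, which amplifies type I interferon production, rose with the antiviral genes. It stood at 6.36, 5.92 and 4.87 CPM on day 0 and at 54.6, 48.6 and 200 CPM on day 3 in control. The adalimumab libraries had 4.58, 4.87 and 8.58 CPM and then 224, 33.5 and 139 CPM. The groups did not overlap, and the differences were 4.14 ± 0.64 (adjusted p = 0.000155) and 4.46 ± 0.65 (0.000143). Stat2 and Irf9, partners in the type I complex, rose by 1.69 ± 0.29 and 0.97 ± 0.25 in control and by 1.77 ± 0.29 and 0.87 ± 0.25 in adalimumab. Irf1, a regulator that answers strongly to interferon gamma and also to inflammatory signals, fell in control by 1.40 (SE 0.51, adjusted p = 0.0404). Its day 0 levels there were 26.0, 166 and 35.3 CPM and its day 3 levels 18.4, 26.4 and 41 CPM. The fall rested on control day 0 replicate 2: without that library the difference was -0.05 (adjusted p = 0.935), and with the animal as a block it was -0.91 (0.236). In adalimumab Irf1 had 31.9, 14.2 and 19.4 CPM on day 0 and 44.2, 19.6 and 40.03 CPM on day 3, a difference of 0.67 ± 0.50 (0.371).

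All 3 genes of the Isg15 conjugation system rose in both arms. Besides Isg15 these are Usp18, the protease that removes Isg15 and also damps the type I receptor, with 2.61 ± 0.55 in control and 2.90 ± 0.56 in adalimumab, and Herc6, a ligase that attaches it, with 1.78 ± 0.40 and 1.60 ± 0.40. Of the 13 other effectors, 9 rose in control and 11 in adalimumab, with 0 falls. Rsad2 (viperin), which makes a nucleotide that ends viral RNA chains, rose by 2.72 ± 0.59 (adjusted p = 0.00208) and 3.75 ± 0.61 (0.000385). Bst2 (tetherin), which holds budding virus at the cell surface, rose by 2.70 ± 0.38 (8e-05) and 3.16 ± 0.39 (4.3e-05). Cxcl10, a chemokine for T cells that both interferon classes raise, did not pass in either arm. It had 6.14, 20.9 and 6.70 CPM on day 0 and 3.34, 14.3 and 15.0 CPM on day 3 in control (-0.05 ± 0.59, adjusted p = 0.962). In adalimumab the values were 5.62, 1.99 and 4.58 CPM and then 16.8, 3.61 and 18.1 CPM (1.66 ± 0.61, 0.0596). The day 0 and day 3 libraries overlapped in both arms, and without adalimumab day 3 replicate 2 the adalimumab difference was 2.10 (0.0189).

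Gamma-type genes moved less than type I genes, and not together. In control 2 of 6 rose by day 3, Gbp3 and Irgm1, and in adalimumab 5 of 6 rose, all but Cxcl9. The median log2 difference over the list was 0.96 in control and 1.85 in adalimumab, against 4.01 and 4.24 over the type I list. The control value was 0.50 without control day 3 replicate 3.

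Irgm1, a GTPase of the immunity-related family that controls its relatives on membranes, had 25.8, 18.9 and 32.3 CPM on day 0 and 78.9, 76.6 and 124 CPM on day 3 in control. The adalimumab values were 26.9, 13.4 and 15.9 CPM and then 113, 14.9 and 104 CPM, where replicate 2 lay within the day 0 range. The differences were 1.86 ± 0.50 (adjusted p = 0.00863) and 2.04 ± 0.50 (0.00846). Gbp3 rose by 2.22 ± 0.49 and 2.55 ± 0.50. Igtp, another GTPase of that family, had 1.03 ± 0.50 (0.117) in control and rose by 1.67 ± 0.51 (0.0261) in adalimumab.

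Gbp2 and Gbp5 are guanylate-binding proteins that coat and break open vacuoles with microbes. Gbp2 stood at 46.1, 42.0 and 36.4 CPM on day 0 and 33.6, 46.1 and 66.7 CPM on day 3 in control, with overlapping groups and a difference of 0.23 ± 0.36 (adjusted p = 0.646). In adalimumab it rose from 34.1, 15.1 and 26.8 CPM to 103, 38.3 and 75.5 CPM, by 1.51 ± 0.37 (0.00735). Gbp5 had 0.89 ± 0.58 (0.249) in control and rose by 2.14 ± 0.61 (0.018) in adalimumab. These adalimumab rises were less secure than those of the type I genes. Fitted with only the adalimumab libraries of days 0 and 3, the adjusted p was 0.0842 for Gbp2, 0.0953 for Gbp5, 0.131 for Irgm1 and 0.153 for Igtp. With the animal as a block it was 0.113 for Gbp5 and 0.0747 for Irgm1. The call for Gbp5 was also lost without adalimumab day 0 replicate 2 or 3 or day 3 replicate 1 (0.0718, 0.065 and 0.0572), and that for Igtp without adalimumab day 0 replicate 2 or 3 or day 3 replicate 1 or 3 (0.105, 0.0501, 0.0809 and 0.0661).

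Cxcl9, the chemokine most closely tied to interferon gamma, had opposite signs in the arms. In control it stood at 19.7, 13.2 and 10.9 CPM on day 0 and at 1.32, 7.31 and 8.10 CPM on day 3. In adalimumab it stood at 7.73, 3.10 and 11.2 CPM and then at 22.0, 16.0 and 11.2 CPM. Every control library was lower on day 3 than on day 0, while the adalimumab groups overlapped at the edge. The difference was -1.39 ± 0.58 (adjusted p = 0.0738) in control and 1.16 ± 0.58 (0.163) in adalimumab. The interaction of arm and day, which tests whether the arms changed differently, was 2.55 ± 0.82 (0.102) by edgeR, 2.64 (0.0235) by DESeq2 and 3.79 (0.00679) by limma voom with sample quality weights. With the animal as a block it was 2.90 (0.278).

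The contrast of the lists held mouse by mouse. The label numbers of days 0 and 3 match within an arm, and were read as the same mouse sampled on both days. In control mice 1, 2 and 3 the mean log2 CPM of the type I list rose from day 0 to day 3 by 3.47, 3.40 and 4.58. Their gamma-type list changed by -0.17, 0.78 and 1.52. Thus the type I change was larger in each of them, by 2.62 to 3.64. In adalimumab mice 1, 2 and 3 the type I list rose by 4.79, 2.09 and 4.62 and the gamma-type list by 2.07, 1.03 and 1.86. The type I change was the larger in 6 of 6 mice, least so in adalimumab mouse 2. The genes of each list were chosen with such a contrast in mind, so these values are a description.

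Over the whole course the type I list peaked on day 3 and was lower on days 7 and 10. The fall after day 3 cannot be told apart from the difference of sex given above. Relative to the mean of all 6 day 0 libraries, its mean log2 CPM was 4.09 ± 0.60 (SD, n = 3) in control day 3 wounds, 2.58 ± 0.65 on day 7 and 1.67 ± 0.50 on day 10. In adalimumab it was 3.56 ± 1.63 on day 3, 2.53 ± 0.21 on day 7 and 2.02 ± 0.15 (n = 2) on day 10. The gamma-type list was at 1.10 ± 0.66, 0.66 ± 0.66 and 0.25 ± 0.10 in control and at 1.27 ± 1.06, 0.72 ± 0.26 and 0.70 ± 0.28 in adalimumab. In unwounded skin the type I list stood at 0.27 ± 0.10 in control and -0.27 ± 0.14 in adalimumab. The day 3, 7 and 10 values share these day 0 libraries as their baseline.

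**Figure D3:**
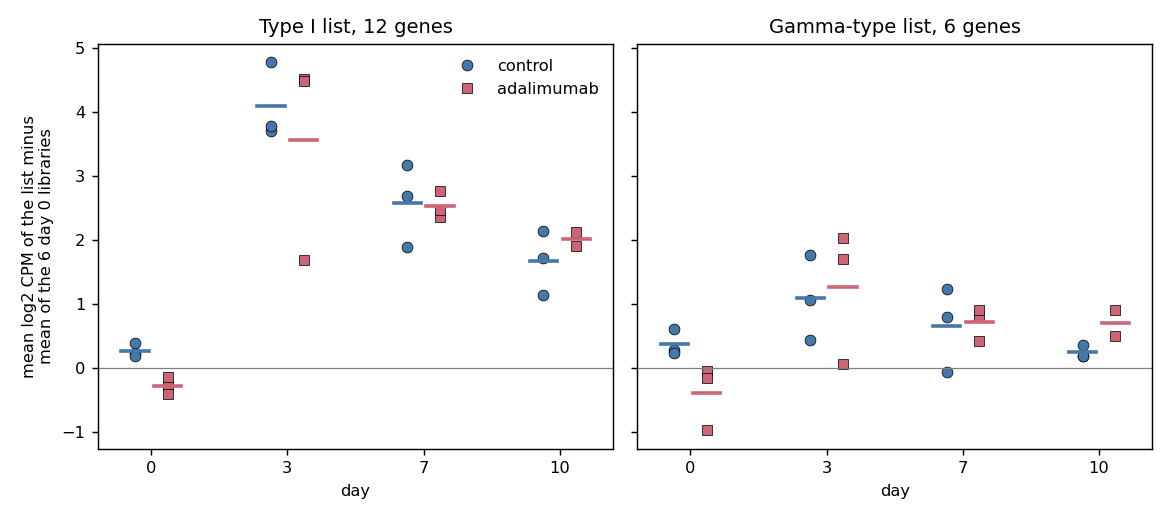
Mean log2 CPM of the type I list (left) and the gamma-type list (right) in each library, relative to the mean of the 6 day 0 libraries. Points are libraries, circles control and squares adalimumab, and bars are group means. Type I means are 4.09 and 3.56 on day 3 and 1.67 and 2.02 on day 10, and the low square on day 3 is adalimumab replicate 2.

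Adalimumab day 3 replicate 2 was lower for most of these genes than any other day 3 wound. It lay below all 5 other day 3 libraries for 35 of the 41 members, among them 11 of 12 type I genes and 4 of 6 gamma-type genes. It was the lowest of its group for 40 of 41. The median log2 difference from replicates 1 and 3 was -2.12 over the members, against -0.02 over all genes tested. Even so, 21 members, 10 of them type I genes, were at least 1 log2 unit above the adalimumab day 0 mean in it. The same library had 726 CPM of Il6, an inflammatory cytokine, against 7.93 and 10.5 in replicates 1 and 3, and 8 neutrophil markers summing to 2190 CPM against 207 and 545. Most of that sum was S100a8 (1355 CPM) and S100a9 (633 CPM). Among the neutrophil markers Csf3r was lower in replicate 2 (39.3 against 71.2 and 62.5), Mmp9 lay between (28.1 against 12.4 and 44.4), and the rest were higher. The 10 monocyte and macrophage markers of this library summed to 1788 CPM against 3351 and 2791. Of these, Mrc1 (934 CPM against 799 and 808) and Itgam (279 against 180 and 157) were higher in it than in both others, and the other 8, such as Adgre1 (40.5 against 364 and 241), were lower. The part of these differences in the low level of the members was not tested. Without replicate 2 the type I median in adalimumab was 4.77 and 39 of 41 members rose.

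Day 7 wounds still held the antiviral genes above day 0 skin. In control 21 members rose and 0 fell, where 16.4% of all genes rose and 17% fell, and in adalimumab 29 rose and 0 fell, where 14.6% rose and 17.9% fell. Of the type I list 10 of 12 rose in control (median 2.70) and 11 of 12 in adalimumab (3.13), and of the gamma-type list 1 of 6 (0.31) and 2 of 6 (0.90). The control median of the gamma-type list was -0.009 without control day 7 replicate 3 and 0.62 without replicate 2. With adalimumab day 0 replicate 1 as the only baseline the adalimumab count was 10.

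Isg15 on day 7 stood at 15.5, 10.7 and 26.0 CPM in control (2.85 ± 0.49, adjusted p = 0.000449) and at 17.0, 15.6 and 11.7 CPM in adalimumab (2.43 ± 0.48, 0.00144). All were above the day 0 libraries, and their range overlapped that of day 3. Dhx58 (2.17 ± 0.32, 0.000137) and Ifi204 (2.84 ± 0.43, 0.000146) again had the smallest p in control, and Dhx58 (2.65 ± 0.33, 3.2e-05) and Eif2ak2 (1.70 ± 0.26, 0.000179) in adalimumab. Ifit1 rose by 2.90 ± 0.64 (0.0026) and 3.56 ± 0.66 (0.000847), Mx1 by 2.66 ± 0.64 (0.00489) and 3.75 ± 0.68 (0.000749), and Oas2 by 3.13 ± 0.60 (0.00108) and 3.32 ± 0.61 (0.000823). Irf7 rose by 2.55 ± 0.60 (0.00394) and 2.36 ± 0.59 (0.00652). On the gamma side Gbp2 had -0.11 ± 0.36 (0.84) in control and 0.59 ± 0.36 (0.221) in adalimumab, and Cxcl9 had -1.25 ± 0.58 (0.106) and -0.24 ± 0.58 (0.775). Gbp5 rose in adalimumab by 1.90 ± 0.60 (0.0226), a call lost without day 0 replicate 2 or 3 or day 7 replicate 1 (0.0652, 0.0576 and 0.0804).

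By day 10 the rise of the antiviral genes was smaller, and in control the T cell chemokines were below day 0. In control 16 members rose and 3 fell, where 16.2% of all genes rose and 18.2% fell. In adalimumab 16 rose and 0 fell, where 9.02% rose and 5.41% fell. Among type I genes 7 of 12 rose in control (median 1.64) and 8 of 12 in adalimumab (2.35), and among gamma-type genes 1 rose and 1 fell in control (-0.07) and 1 rose in adalimumab (0.80). These counts were unsteady. The control count of 19 was 12 without control day 0 replicate 3 and 11 without control day 10 replicate 1 or 2. The adalimumab count of 16 was 10 without day 0 replicate 2, 6 and 7 without day 10 replicate 1 and 2, and 28 with only its own groups fitted.

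Isg15 on day 10 had 6.68, 8.84 and 7.04 CPM in control (1.64 ± 0.47, adjusted p = 0.013) and 8.09 and 7.15 CPM in adalimumab (1.48 ± 0.51, 0.0571). Ifi204 rose by 1.95 ± 0.41 (0.00198) and 2.40 ± 0.45 (0.00185), and Dhx58 by 1.37 ± 0.32 (0.00353) and 1.90 ± 0.35 (0.00159). Mx1 had 1.94 ± 0.63 (0.0243) and 3.20 ± 0.70 (0.00586), both past the threshold. The control call for Mx1 was lost without control day 0 replicate 3 or day 10 replicate 1 or 2 (0.0791, 0.0516 and 0.0759), and the adalimumab one without day 10 replicate 1 (0.0541).

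The 3 members that fell in control by day 10 were Cxcl10, Cxcl9 and Ifi27l2a, a small mitochondrial protein gene. Cxcl9 fell by 1.92 (SE 0.60, adjusted p = 0.0193) to 3.87, 4.51 and 3.19 CPM, all below the day 0 libraries. That call was lost without control day 0 replicate 1 or day 10 replicate 1 or 3 (0.0768, 0.061 and 0.0746). Cxcl10 fell by 2.07 (SE 0.62, 0.0161) to 2.26, 3.24 and 2.54 CPM. Its value was -1.20 (0.142) without control day 0 replicate 2, and the call was also lost without control day 10 replicate 1 or 3 (0.0658 and 0.0579). For Ifi27l2a the adjusted p was 0.0459, and it was between 0.0884 and 0.173 without any one of control day 0 replicates 1, 2 and 3 or day 10 replicates 2 and 3. In adalimumab on day 10 Cxcl9 was at 14.3 and 9.03 CPM, overlapping its day 0 levels (0.67 ± 0.63, 0.5).

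**Figure D4:**
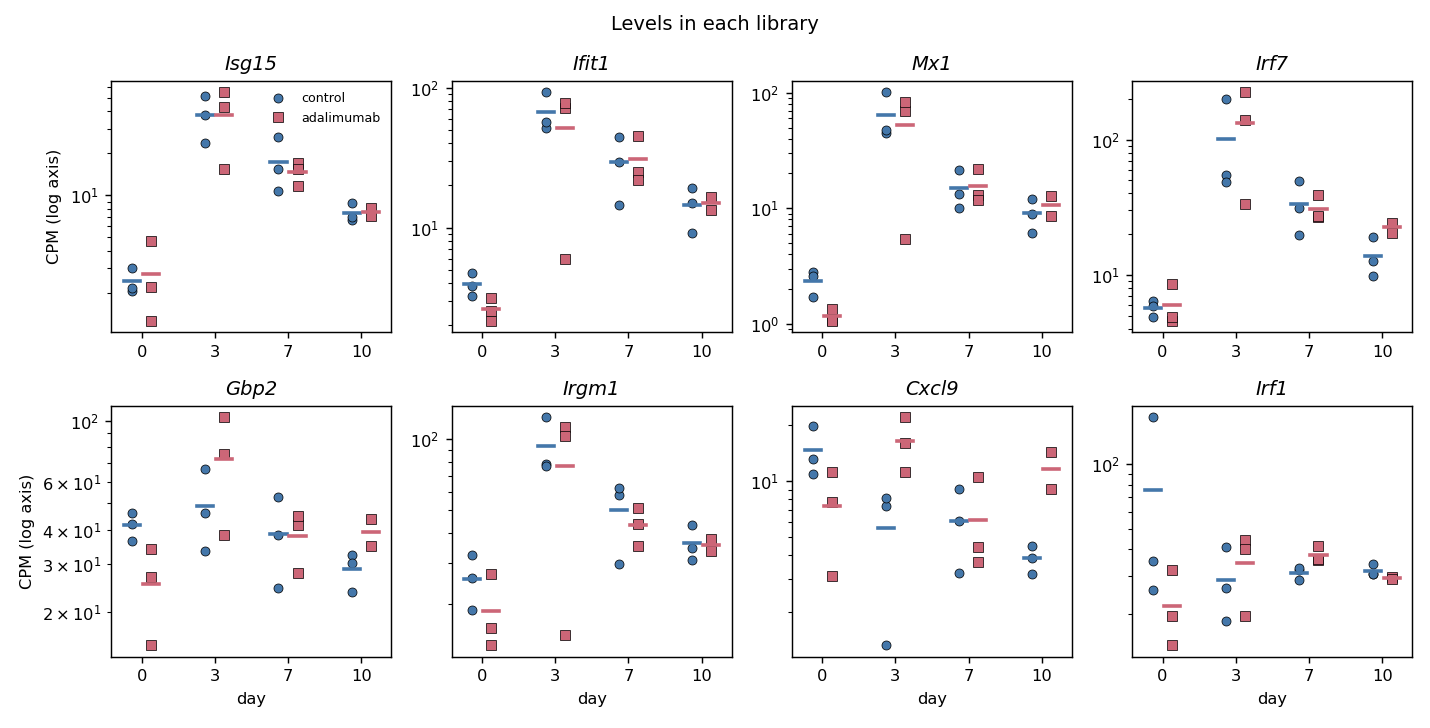
CPM in each library on a log axis for 8 members, with circles for control, squares for adalimumab and bars at group means. Isg15, Ifit1, Mx1 and Irf7 rise on day 3 in both arms and stay above day 0 on day 10. Irgm1 rises on day 3, Gbp2 and Irf1 overlap their day 0 levels in control, and Cxcl9 lies lower in control than in adalimumab on days 3 and 10.

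Adalimumab and control wounds were then compared day by day. By edgeR 0 of 41 members passed between the arms on day 0 (0.269% of all genes tested passed), day 3, day 7 or day 10 (0% of all genes on each). At an unadjusted p under 0.05 there were 3, 1, 0 and 1 of the 41 members. Of all 23083 genes tested, 3066, 3916, 945 and 3245 were so. DESeq2 called 1, 0, 0 and 0, and limma voom with sample quality weights called 9, 0, 0 and 1. The shares of all genes that these 2 tools called are not given here. Their counts, here and in the interaction below, are therefore not read as particular to the members. The interaction of arm and day gave 0 members by edgeR for day 3 (1.81% of all genes) and 0 for day 7 (0% of all genes). Unadjusted it gave 3 members for day 3, and 4723 of all genes tested, and 1 member for day 7, and 1724 of all genes. For day 3 DESeq2 called 2 members and voom 4, and for day 7 each called 0.

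Unwounded skin of the adalimumab arm had slightly lower levels of nearly all members. The adalimumab value was the lower for 38 of 41, with a median log2 difference of -0.50 against 0.00 over all genes tested. For 15 members the groups did not overlap with adalimumab lower, which held for 5.74% of all genes. The medians of the type I and gamma-type lists were -0.65 and -0.68. Irf1 had the smallest p, with 31.9, 14.2 and 19.4 CPM against 26.0, 166 and 35.3 CPM in control (-1.79 ± 0.52, adjusted p = 0.105), and without control replicate 2 its difference was -0.52. By DESeq2 Irf1 had -1.87 (0.0182). Next were Ifi27l2a, with 26.1, 14.7 and 18.6 CPM against 52.0, 52.9 and 55.0 CPM (-1.43 ± 0.59, 0.288), and Cxcl10 (-1.47 ± 0.61, 0.29). The Ifi27l2a groups stood well apart. Mx1 had -1.02 ± 0.64 (0.523) and Gbp2 -0.71 ± 0.36 (0.409). Beside these values stand the hair follicle markers of adalimumab replicates 2 and 3 given above, 7 of 8 of that list being in the table and none at 0 in the group. Their part in the difference was not tested. Without adalimumab replicate 1, 1 member passed.

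In day 3 wounds the arms had close type I levels, with a median difference of -0.25 (-0.53 without adalimumab replicate 1 and 0.23 without adalimumab replicate 2). For the gamma-type list it was 0.10, and it ran from -0.28 without adalimumab replicate 1 to 0.56 without control replicate 3, so neither median had a steady sign. Isg15 differed by 0.00 ± 0.45, Ifit3 by 0.02 ± 0.60, Mx1 by -0.29 ± 0.60 and Irf7 by 0.39 ± 0.56 (adjusted p = 1, 0.996, 0.847 and 0.769). With such errors these values do not show that the arms were alike. Cxcl9 was the 1 member whose groups did not overlap, with 11.2 to 22.0 CPM in adalimumab and 1.32 to 8.10 CPM in control (1.56 ± 0.59, 0.212), where 6.6% of all genes were higher without overlap. Gbp2 (0.57 ± 0.36, 0.43) and Eif2ak2 (-0.35 ± 0.25, 0.491) came next by p.

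On day 7 the medians of the arms were close, at -0.06 for type I and 0.00 for gamma-type genes. Adalimumab replicate 3 carried Xist (30365 counts), and the other day 7 libraries carried Ddx3y. The part of sex in these values was not tested. Irf1 was the 1 member higher in adalimumab without overlap, with 41.6, 35.5 and 36.2 CPM against 28.8, 32.0 and 32.5 CPM (0.28 ± 0.50, adjusted p = 1), where 2.85% of all genes were so. The smallest p belonged to Ifi204 (-0.63 ± 0.40), Gbp5 (0.49 ± 0.58) and Oasl1 (-0.39 ± 0.50), each with an adjusted p of 1.

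On day 10 the medians were 0.18 and 0.27. Cxcl9 again had the smallest p, with 14.3 and 9.03 CPM in adalimumab against 3.87, 4.51 and 3.19 CPM in control (1.59 ± 0.64, adjusted p = 0.28). The groups did not overlap, as was true of 8 members higher in adalimumab (19.5%, where 23.1% of all genes were so). Other members were lower in adalimumab without overlap, among them Stat2, Rtp4, Xaf1 and Irf1. Stat2 had 52.8 and 47.9 CPM against 59.2, 55.0 and 60.0 CPM in control. The share of all genes lower in this way is not given here. Fitted with the day 10 libraries alone the adjusted p of Cxcl9 was 0.0137, and by limma voom with sample quality weights 0.0421. Oas3 (1.10 ± 0.63, 0.442) and Oas1a (0.79 ± 0.51, 0.501) followed. T and NK cell markers, the cells known to make interferon gamma, summed to 37.4 and 39.0 CPM in adalimumab day 10 wounds and to 17.8, 22.3 and 18.0 CPM in control. On day 3 the sums were 27.5, 8.75 and 25.3 CPM in adalimumab and 4.33, 17.7 and 6.90 CPM in control, on day 7 14.0 to 30.9 and 10.4 to 13.7 CPM, and on day 0 17.2 to 30.2 and 16.8 to 53.5 CPM. All 12 markers were in the table and none was at 0 throughout a group. On day 10 Cd4, Cd8a, Gzmb and Ncr1 of this list overlapped between the arms, and the rest were higher in adalimumab. The highest day 0 sum, in control replicate 2, held 22.9 CPM of Gzmb, against 0.193 and 0.244 CPM in control replicates 1 and 3. Other markers also differed between the arms on day 10. Keratinocyte markers summed to 15780 and 20710 CPM in adalimumab and to 1319, 2187 and 2467 CPM in control, and hair follicle markers to 521 and 90.6 CPM against 12.6 to 26.3 CPM. The part of any of these markers in the level of Cxcl9 was not tested.

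**Figure D5:**
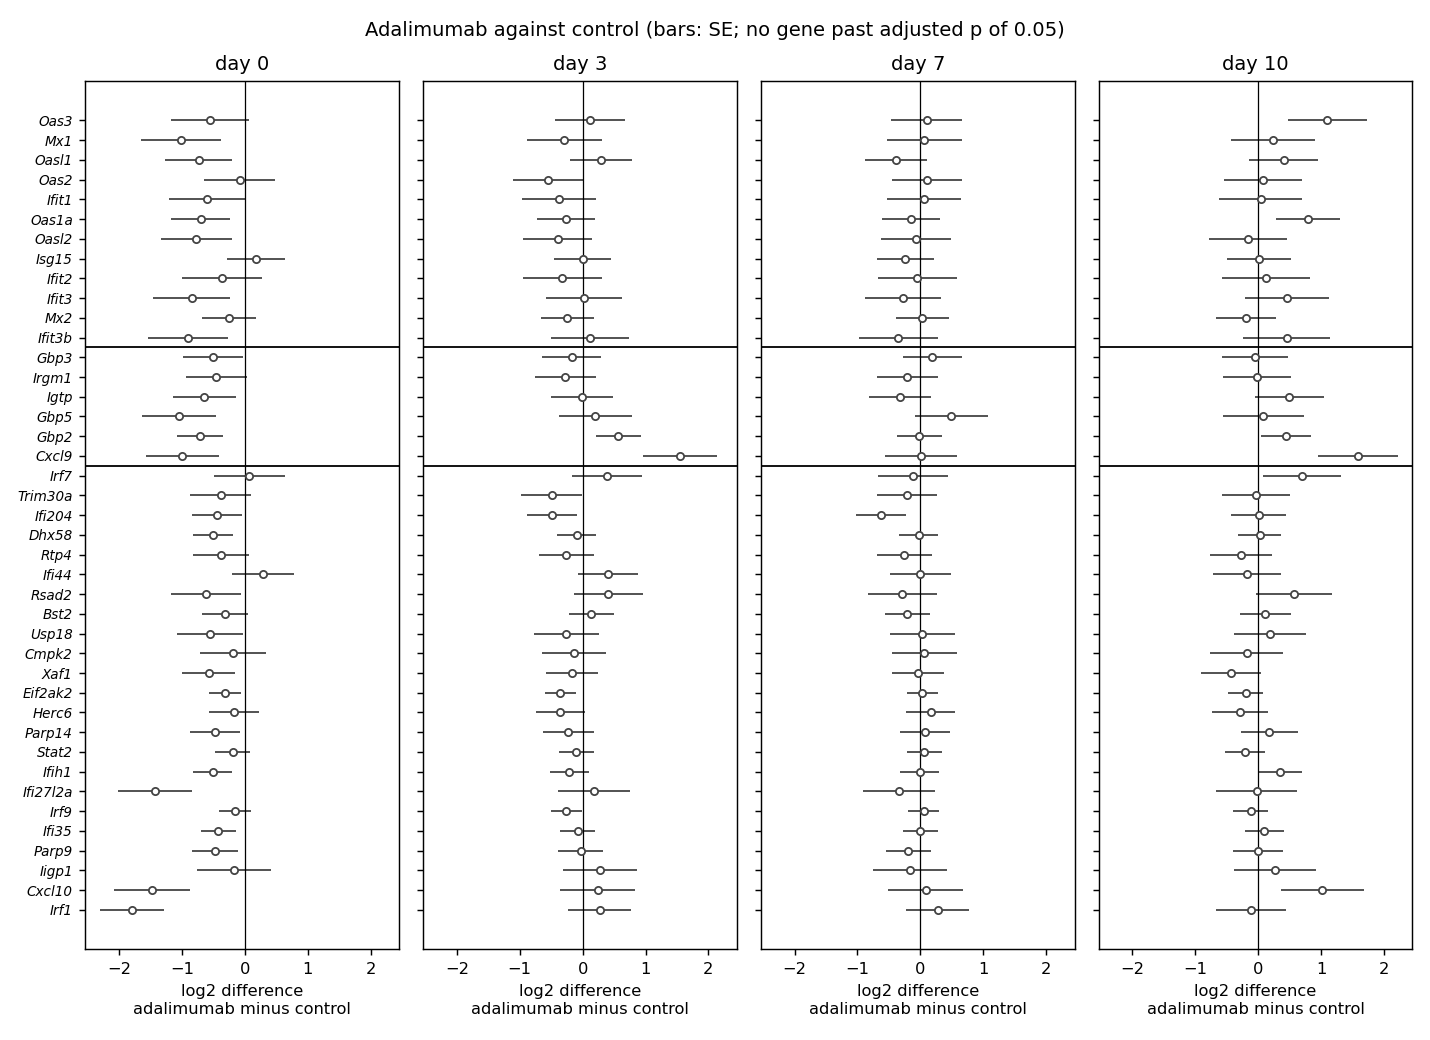
Log2 difference between adalimumab and control for each member on each day, with SE. On day 0 most points lie to the left of 0 (38 of 41), on days 3 and 7 they scatter around it, and Cxcl9 lies to the right on days 3 and 10, at 1.56 and 1.59.

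Transcripts of the interferons themselves were scarcely counted. Ifnb1 had 0 to 4 counts, with 0 in 21 of 23 libraries, and Ifng had 0 to 7 counts, with 0 in 9. Ifna4, Ifnl2 and Ifnl3 had 0 counts in all 23. None was tested, and at this depth a difference between groups was not detectable.

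The signalling genes around them were better counted. From a list of 39 ligands, receptors, kinases, sensors and regulators upstream of the members, 29 were tested. Of these 11 rose and 2 fell by day 3 in control, where 17.5% of all genes rose and 17.1% fell, and 15 rose and 1 fell in adalimumab, where 11.9% rose and 9.54% fell. On day 7 control had 8 rises and 4 falls (16.4% and 17% of all genes) and adalimumab 14 and 2 (14.6% and 17.9%). On day 10 control had 5 and 4 (16.2% and 18.2%), which is near the share of all genes, and adalimumab 10 and 1 (9.02% and 5.41%). Between the arms 0 passed on any day. Sting1, the adaptor of DNA sensing, rose by 2.94 ± 0.32 (adjusted p = 1e-05) in control and 2.56 ± 0.31 (3.7e-05) in adalimumab on day 3. Its levels were 8.65, 14.1 and 6.09 CPM and then 74.8, 45.8 and 101 CPM in control. Zbp1, a sensor of Z-form nucleic acid and itself induced by interferon, rose by 4.14 ± 0.64 (0.00015) and 4.66 ± 0.65 (0.000109). Rigi, the RNA sensor RIG-I, rose by 1.90 ± 0.33 (0.000379) and 1.77 ± 0.33 (0.0011). Cgas, which senses DNA and signals to Sting1, rose in control by 1.85 ± 0.37 (0.00112). In adalimumab Cgas had 5.40, 7.28 and 5.91 CPM on day 0 and 13.2, 3.55 and 15.2 CPM on day 3, where replicate 2 lay below the day 0 libraries (0.78 ± 0.36, 0.127).

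Receptor chains of both interferon classes were tested. Ifnar1 rose by 0.76 ± 0.27 (adjusted p = 0.0398) in control and 1.24 ± 0.28 (0.00433) in adalimumab on day 3, and Ifnar2 by 1.31 ± 0.27 (0.00153) and 2.15 ± 0.28 (5.4e-05). Ifngr1 fell in control by 0.84 (SE 0.31, 0.0459), from 279, 236 and 247 CPM to 136, 128 and 162 CPM. It stood at 263, 113 and 72.7 CPM and then 208, 148 and 130 CPM in adalimumab (0.12 ± 0.31, 0.827), where the groups overlapped. Its interaction of arm and day was 0.96 ± 0.44 (0.232). The other chain of that receptor, Ifngr2, had 47.9, 75.6 and 62.0 CPM on day 0 and 75.3, 58.6 and 87.6 CPM on day 3 in control, with overlapping groups (0.26 ± 0.22, 0.395). In adalimumab Ifngr2 rose by 0.81 ± 0.22 (0.0164).

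A second list of 16 genes, for antigen presentation and other products known to answer to interferon gamma, did not rise with the antiviral genes in control. On day 3 there, 1 of 16 rose and 5 fell, with a median of -0.55, where 17.1% of all genes fell. On day 7 0 rose and 10 fell (-1.08), where 17% of all genes fell. Nlrc5, a transactivator of class I antigen presentation genes, fell by 1.06 (SE 0.28, adjusted p = 0.00849) on day 3, and H2-K1, a class I molecule, by 1.15 (SE 0.34, 0.0147). Psmb10, an immunoproteasome subunit, rose by 0.97 ± 0.30 (0.0173). In adalimumab 3 rose and 0 fell on day 3 (median 0.40), where 11.9% of all genes rose and 9.54% fell. The 3 were Cd274, Psmb10 and Psmb8. On day 7, 1 rose and 0 fell (-0.09), where 14.6% rose and 17.9% fell. H2-K1 stood at 845, 290 and 318 CPM in adalimumab day 0 skin, and Nlrc5 at 116, 62.4 and 66.7 CPM. On day 3 they had 620, 552 and 538 CPM and 72.1, 59.9 and 89.3 CPM, all below day 0 replicate 1. The 3 genes that rose lay above it. The part of replicates 2 and 3, with their hair follicle markers, in these counts was not tested. On day 10, 0 rose and 6 fell in control (-1.06), where 18.2% of all genes fell. In adalimumab 0 changed on day 10 (0.00), where 9.02% of all genes rose and 5.41% fell. Between the arms 0 of 16 passed on any day. The medians there were -0.64 on day 0, 0.43 on day 3, 0.39 on day 7 and 0.63 on day 10, and the interaction had 0 calls as well.

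Sums of cell type markers also differed between the days. Markers of monocytes and macrophages, all 10 in the table and none at 0 throughout a group, summed to 127 to 664 CPM in control and 120 to 222 CPM in adalimumab on day 0. On day 3 the sums were 1816 to 4881 and 1788 to 3351 CPM, on day 7 993 to 2172 and 1249 to 1853 CPM, and on day 10 1044 to 1562 and 1359 to 1508 CPM. These sums were highest on day 3, as was the type I list. Other lists took other courses. In control, fibroblast markers summed to 11220 to 24390 CPM on day 3 and 49510 to 81780 CPM on day 7. Neutrophil markers summed to 73.0 to 251 CPM and then 467 to 906 CPM there. Siglech, a surface marker of plasmacytoid dendritic cells, which are known as strong makers of type I interferon, was low on both days, at 0.791 to 2.23 CPM on day 0 and 0.176 to 0.807 CPM on day 3 in control, and at 0.322 to 1.45 and 0.643 to 2.30 CPM in adalimumab. The summed level of the 8 markers listed for these cells lay mostly in Ly6d, Cox6a2 and Tcf4, which other skin cells also express, and was not read as a measure of them. In adalimumab day 3 replicate 1, where keratinocyte markers were nearly absent, the type I list was as high as in replicate 3 (a change of 4.79 against 4.62 from the same mouse on day 0). That library also had the highest adipocyte markers of day 3, summing to 7801 CPM against 108 to 1536 CPM in the other day 3 libraries. The part of cell make-up in the rise of the members was not tested.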

How the data were processed

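Libraries were made with a stranded kit for total RNA and read from one end, per the labels' protocols. The submitters' processing notes name STAR, with no version, and the build GRCm39. The counting step, its annotation and its strand handling, not given in the sources used here, decide whether reads of antisense or overlapping genes are included. The authors deposited whole-number counts per gene for 23 libraries, not normalized. Groups came from the labels. Replicates carry separate mouse numbers, so p-values measure the spread between these labelled animals.

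Differences were tested with edgeR 4.0.16 under R 4.3.3. The steps were filterByExpr by group (minimum count 10, total 15), TMM scaling, glmQLFit and glmQLFTest with 1 mean per group over 23 libraries, and Benjamini-Hochberg adjustment over 23083 genes at 0.05. Values after ± are SE of log2 differences unless given as SD. List levels are means of log2 CPM with a prior count of 0.5. The fit was also run on counts simulated from its own fitted values, for control day 3 against day 0 only. Those counts were drawn as independent libraries, so the run cannot test the pairing or the outlying libraries. The 41 members and all gene lists were chosen with earlier results of these data known. Genes with full statistics are up to 6 members with the smallest p past the threshold in each direction of a comparison, the 3 smallest where none passed, 13 fixed members, and up to 4 upstream genes past the threshold with 4 fixed ones, of which 1 is not reported here. Other genes named were chosen after their values were seen. Day 0 and day 3 libraries of an arm share mouse numbers. The main fit took them as independent, and the pairs entered only the mouse by mouse description and the animal block. Deviations from the group mean of the paired libraries correlated at -0.05, -0.025 and -0.051 for control mice and at 0.261, -0.082 and 0.26 for adalimumab mice. Libraries of unlike numbers correlated at -0.005 to 0.047 in control and at -0.325 to 0.241 in adalimumab. These values do not settle whether like numbers are the same mouse. Alternatives were DESeq2 1.42.0, RLE size factors, other filters, plain totals, a prior count of 3, fits of the compared groups alone, replicate blocks and omission of each library. Voom of limma 3.58.1 with sample quality weights, and adalimumab day 0 reduced to replicate 1, were chosen after seeing the data. Promoter coordinates are of GRCm38.p6, not the authors' build, and were used only to read sequence.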

Additional observations from a re-analysis of the deposited data

How the results depend on the processing

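RLE size factors and either filter on low counts kept each count of members called within 1.5 times of its value. With only the compared groups fitted, 1 member passed between the arms on day 10, and 24 and 28 members rose from day 0 to days 3 and 10 in adalimumab. DESeq2 called 1 member between the arms on day 0 and 2 in the day 3 interaction. Limma voom with sample quality weights called 9 and 1 between the arms on days 0 and 10, 36 in adalimumab on day 10 and 4 in the day 3 interaction. With adalimumab day 0 reduced to replicate 1 the adalimumab counts were 15, 10 and 2 on days 3, 7 and 10, fewer samples being part of that setting. Leaving out 1 library at a time gave 0 to 1 between the arms on day 0, 11 to 18 for control day 10 and 6 to 12 for adalimumab day 10. The mean type I difference from day 0 in adalimumab, 2.80 on day 7, was 2.62 with plain totals and 2.81 to 2.99 without single libraries, and on day 10 (2.29) it was 2.30 to 2.49. For the other moves the cause was not tested. The shares of all genes called in these settings, and with the blocks below, are not given here. The counts therefore show only how far the member counts moved.

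With the replicate block by animal, 31 members passed in control and 27 in adalimumab on day 3 against day 0, and 0 in the interaction. With the replicate number as a block, which names no shared animal here, counts were 23 and 27 for day 7 and 25 and 18 for day 10 in control and adalimumab, with 0 between the arms on days 0, 3 and 7, 1 on day 10 and 0 in the day 7 interaction. The block lost the calls of Irf1, Gbp5 and Irgm1 given above and, by number, that of Rsad2 in adalimumab on day 7 (1.53, adjusted p = 0.0967).

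Signs turned only for values that had not passed. Under voom these were Gbp5 between the arms on day 7 (-0.082), Cxcl10 in control on day 3 (0.13), Cxcl9 in adalimumab on day 7 (0.23) and Rsad2 in control on day 10 (-0.014). Without single libraries Gbp2 ran from -0.058 to 0.44 in control on day 3 and from -0.40 to 0.18 on day 7. Cxcl10 ran from -0.35 to 0.81 in control on day 3 and from -0.16 to 0.84 in adalimumab on day 10. Cxcl9 ran from -0.74 to 0.28 in adalimumab on day 7. Gbp5 ran from -0.085 to 0.67 on day 7 and from -0.18 to 0.63 on day 10 in control, and Rsad2 from -0.30 to 0.57 in control on day 10. Plain totals moved the median of all genes by 0.19 and 0.16 between the arms on days 0 and 10, and by -0.12 and -0.18 in adalimumab on days 3 and 7. With 2 or 3 libraries a group, differences of the arms below about 1 log2 unit were mostly within the error of these genes.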
